A study of Mus musculus with 8 samples.

Results

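The epidermal growth factor (EGF) family was followed through the cells of the mouse mammary gland as 10 genes chosen by symbol, of the 27998 genes in the deposited count matrices. They were 6 ligands, Areg, Btc, Ereg, Tgfa, Hbegf and Nrg1, and the 4 receptors Egfr, Erbb2, Erbb3 and Erbb4. Single EpCAM-positive mammary cells of C57BL/6N mice had been profiled by droplet sequencing of transcript 3' ends, with 2 independent mice at each of 4 stages. Nulliparous females (NP) were 8 weeks old, pregnant females (G) were at day 14.5 of gestation, lactating females (L) at day 6 of lactation, and post-involution females (PI) were taken 11 days after natural weaning. The labels and methods name no transgene or treatment, the sort excluded cells carrying CD31, CD45 or Ter119, and ages of the G, L and PI females are not given in the sources used here. The question addressed is which of the study's cell clusters carried transcripts of the ligands, which carried those of the receptors, and how these changed with stage within a cell class.

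EGF family ligands are made as membrane-anchored precursors that are cut from the cell surface, largely by ADAM metalloproteases, and act on the same or neighbouring cells. AREG and TGFA bind EGFR, HBEGF, BTC and EREG bind EGFR and ERBB4, and neuregulin 1 (NRG1) binds ERBB3 and ERBB4. ERBB2 binds no ligand and is the preferred partner of the other receptors, whereas ERBB3 has little kinase activity of its own. In the mammary gland, AREG made by oestrogen-responsive luminal cells is known as the local signal that drives duct growth, and NRG1 and ERBB4 are known for roles in alveolar growth and lactation.

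The libraries held between 13785920 and 35711533 unique molecular identifiers (UMIs, counted RNA molecules), in 1500 to 5906 cells per mouse, with a median of 3767.5 to 9622 UMIs per cell. The authors' clusters were used as deposited. C6 and C7 were luminal progenitors (Lp) of NP and PI mice, C2 and C1 hormone-sensing (Hs) progenitors of NP and PI mice, and C4, C5 and C3 differentiated Hs cells, mainly of NP, G and PI mice. C10 and C11 were alveolar progenitors and C8 and C9 differentiated alveolar cells of G and L mice, and C12, C13 and C14 were basal cells of NP and PI, of G, and of L mice. C15 was a Procr-positive cluster of L mice, and C16 to C19 were the small non-epithelial clusters (immune cells in C16 and C17, fibroblasts in C18, endothelial cells in C19). The 4 Hs markers (Prlr, Pgr, Esr1, Cited1) summed to between 1882.5 and 3244 counts per 1000000 UMIs (CPM) in C4 and C5, against 110 and 116 CPM in NP C6. The 4 basal markers (Krt5, Krt14, Acta2, Myh11) summed to between 7060 and 36787 in C12 to C14 and to between 50.4 and 147 in C4. UMIs of the 24699 cells of C1 to C19 were summed per mouse and cluster, and the 51 sums of at least 20 cells were used. Of the deposited barcode sequences 392 occurred in more than 1 library, but no barcode was shared among the cells used. Small sums limit precision, among them C5 with 20 and 41 cells, C18 with 24 and 56 in NP mice and 38 and 31 in G mice, C12 of PI mice with 27 and 53, and C9 with 42 and 47. Differences between clusters are given below as descriptions without a test, since the clusters were drawn on the same transcripts, and differences between stages were tested within a cell class. Each stage was sampled in 2 mice, which left 2 residual degrees of freedom per comparison, and edgeR moderated the spread of each gene over all genes (prior degrees of freedom 6.52 to 19.9). In the comparison of C5 with C4 the prior was infinite, so its p-values rest on the spread pooled over genes. Where a mouse is left out below, the 1 mouse left in its group is assumed to vary like the mice of the other group.

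Areg, which encodes amphiregulin, was a transcript of Hs cells. In differentiated Hs cells of NP mice (C4) its level was 3216 CPM in NP1 and 3478.5 CPM in NP2 (mean 3347 ± 185, SD, n = 2). The Hs progenitors of the same mice (C2) held 2052 and 2306 CPM, below both C4 values. After involution the C3 cells held 989 and 1595 CPM, the C1 progenitors 499 and 805 CPM, and the C5 cells of G mice 819.5 and 1742 CPM, so that C3 and C5 overlapped while C1 lay below both. Areg was higher in differentiated Hs cells than in Lp cells of the same mouse in 4 of 4 mice, by 5.04 on average on the log2 scale of CPM (SD 0.77). Of all Areg UMIs of mouse NP1, 76.4% came from C4 and 19.9% from C2, which held 44.8% and 12.2% of that library's cells. At least 1 Areg UMI was seen in 97.6% and 98.3% of C4 cells, with a median of 32 UMIs per cell in both mice.

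Areg lies on chromosome 5 at 91139599-91148432 on the plus strand (GRCm38, GENCODE vM21), between Ereg (chromosome 5, 91074622-91093646, plus strand) and Btc (chromosome 5, 91357261-91402994, minus strand). Epgn, the gene of the ligand epigen, is the outermost of these neighbours at 91027464-91035215 on the plus strand, and the 4 ligand genes span 375.5 kb. The promoters of Areg and Btc are shown because these neighbouring genes shared their highest cluster, C4, and both fell with stage in Hs cells. They cover 250 bases before to 50 bases after the RefSeq start (GRCm38.p6), in transcript direction, at chr5:91139349-91139648 on the plus strand for Areg and chr5:91402945-91403244 on the minus strand for Btc. Capitals mark matches, on either strand, to a cyclic AMP response element (TGACGTCA), a TATA box (TATAAA) or an Sp1 box (GGGCGG or CCGCCC). 
Areg: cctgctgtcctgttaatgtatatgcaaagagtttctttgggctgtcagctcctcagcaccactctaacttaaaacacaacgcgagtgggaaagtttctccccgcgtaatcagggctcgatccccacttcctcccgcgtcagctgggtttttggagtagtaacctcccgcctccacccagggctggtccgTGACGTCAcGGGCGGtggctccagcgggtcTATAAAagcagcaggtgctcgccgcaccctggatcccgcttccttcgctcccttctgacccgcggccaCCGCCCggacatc
Btc: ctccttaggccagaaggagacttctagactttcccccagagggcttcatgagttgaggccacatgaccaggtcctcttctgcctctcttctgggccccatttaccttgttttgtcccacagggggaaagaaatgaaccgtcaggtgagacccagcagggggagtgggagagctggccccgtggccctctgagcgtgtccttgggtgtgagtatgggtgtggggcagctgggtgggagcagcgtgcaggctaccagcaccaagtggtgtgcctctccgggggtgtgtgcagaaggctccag
The Areg promoter held TGACGTCA at -61 to -54, GGGCGG at -52 to -47, TATAAA at -31 to -26 and CCGCCC at 37 to 42. These are distances in bases from the start site, negative before it. The Btc promoter window held no match to these letters or to the other motifs searched, a full oestrogen response element and a STAT site (TTCNNNGAA). Of 32851 promoter windows of this length, 1.79% held TGACGTCA, 13.6% TATAAA, 35.7% an Sp1 box, 8.3% a STAT site and 0.07% an oestrogen response element. Windows were found for 6 of the 10 members (Areg, Tgfa, Btc, Egfr, Erbb2 and Erbb4).

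Btc, the gene of betacellulin, was also highest in differentiated Hs cells of NP mice, with 66.2 and 60.4 CPM in C4 and 42.1 and 49.99 CPM in C2. It was also present in the secretory branch, with 44.4 and 25.0 CPM in the alveolar progenitors of G mice (C10) and 16.9 and 22.8 CPM in NP Lp cells (C6). In the alveolar progenitors of L mice (C11) it was 19.4 and 14.1 CPM, a range that overlapped that of C6. Basal cells of NP mice held 5.41 and 4.12 CPM. Btc and Areg were each higher in differentiated Hs than in Lp cells of the same mouse in 4 of 4 mice, but for Btc the mean difference was 1.21 on the log2 scale (SD 0.76).

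Hbegf, which encodes heparin-binding EGF-like growth factor, had a different order of clusters and was highest in luminal progenitors. In C6 it was 1269.6 CPM in NP1 and 747 CPM in NP2, a range that held both C7 values (778 CPM in PI1 and 875 CPM in PI2). Hs progenitors followed with 566 and 401 CPM in C2 and 556 and 632 CPM in C1, whereas differentiated Hs cells of NP mice held 149.99 and 118 CPM. Hbegf was lower in differentiated than in progenitor Hs cells of the same mouse in 4 of 4 mice, by 1.73 on average on the log2 scale (SD 0.17). Endothelial cells (C19) were a second site, with 481 and 509.8 CPM in G mice and 423 and 294 CPM in L mice, and the Procr-positive cluster C15 held 236 and 249 CPM. The basal cells of the same L mice (C14) held 31.8 and 33.5 CPM, above only the immune cluster C17 of G mice (22.1 and 18.7 CPM) among the clusters measured in 2 mice. An Hbegf UMI was seen in 94.6% and 86.7% of C6 cells, and in 57.8% and 42.7% of them after each cell was thinned to 1000 UMIs.

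Nrg1, the gene of neuregulin 1, was a basal cell transcript at every stage. It rose from 147 and 167 CPM in C12 of NP mice to 491 and 574 CPM in C13 of G mice (the test is given below), and was 406 and 397 CPM in C14 of L mice and 188 and 204 CPM in C12 of PI mice. Nrg1 was higher in basal than in luminal cells of the same mouse in 8 of 8 mice, by 5.07 on average on the log2 scale (SD 1.41). In differentiated Hs cells of NP mice it was 1.66 and 0.620 CPM. In NP Lp cells it was 21.7 and 19.1 CPM. At least 1 Nrg1 UMI was seen in 85.5% and 89.9% of C13 cells and in 2.06% and 0.743% of C4 cells. The gene spans chromosome 8 from 31814551 to 32884029 on the minus strand.

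Ereg, which encodes epiregulin and lies 45.95 kb from Areg, did not share the Areg pattern. Basal cells held 49.6 and 26.5 CPM of Ereg in NP mice, 42.7 and 48.7 CPM in G mice and 7.81 and 21.8 CPM in L mice, against 0.316 and 0.276 CPM in the C4 cells where Areg was highest. Fibroblasts of NP mice (C18) held 101 and 31.2 CPM, which rested on 14 and 10 UMIs in 24 and 56 cells and overlapped the basal values. Tgfa, the gene of transforming growth factor alpha, was spread more evenly. It was 44.8 and 42.3 CPM in C12 of PI mice (5 and 12 UMIs), 32.9 and 28.4 CPM in C12 of NP mice, 27.8 and 30.7 CPM in C6 and 25.8 and 29.3 CPM in C13, and the last 3 of these overlapped. Tgfa was higher in basal than in luminal cells of the same mouse in 8 of 8 mice, by 1.43 on average on the log2 scale (SD 0.63), and it was 8.80 and 7.64 CPM in C14 of L mice.

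**Figure D1:**
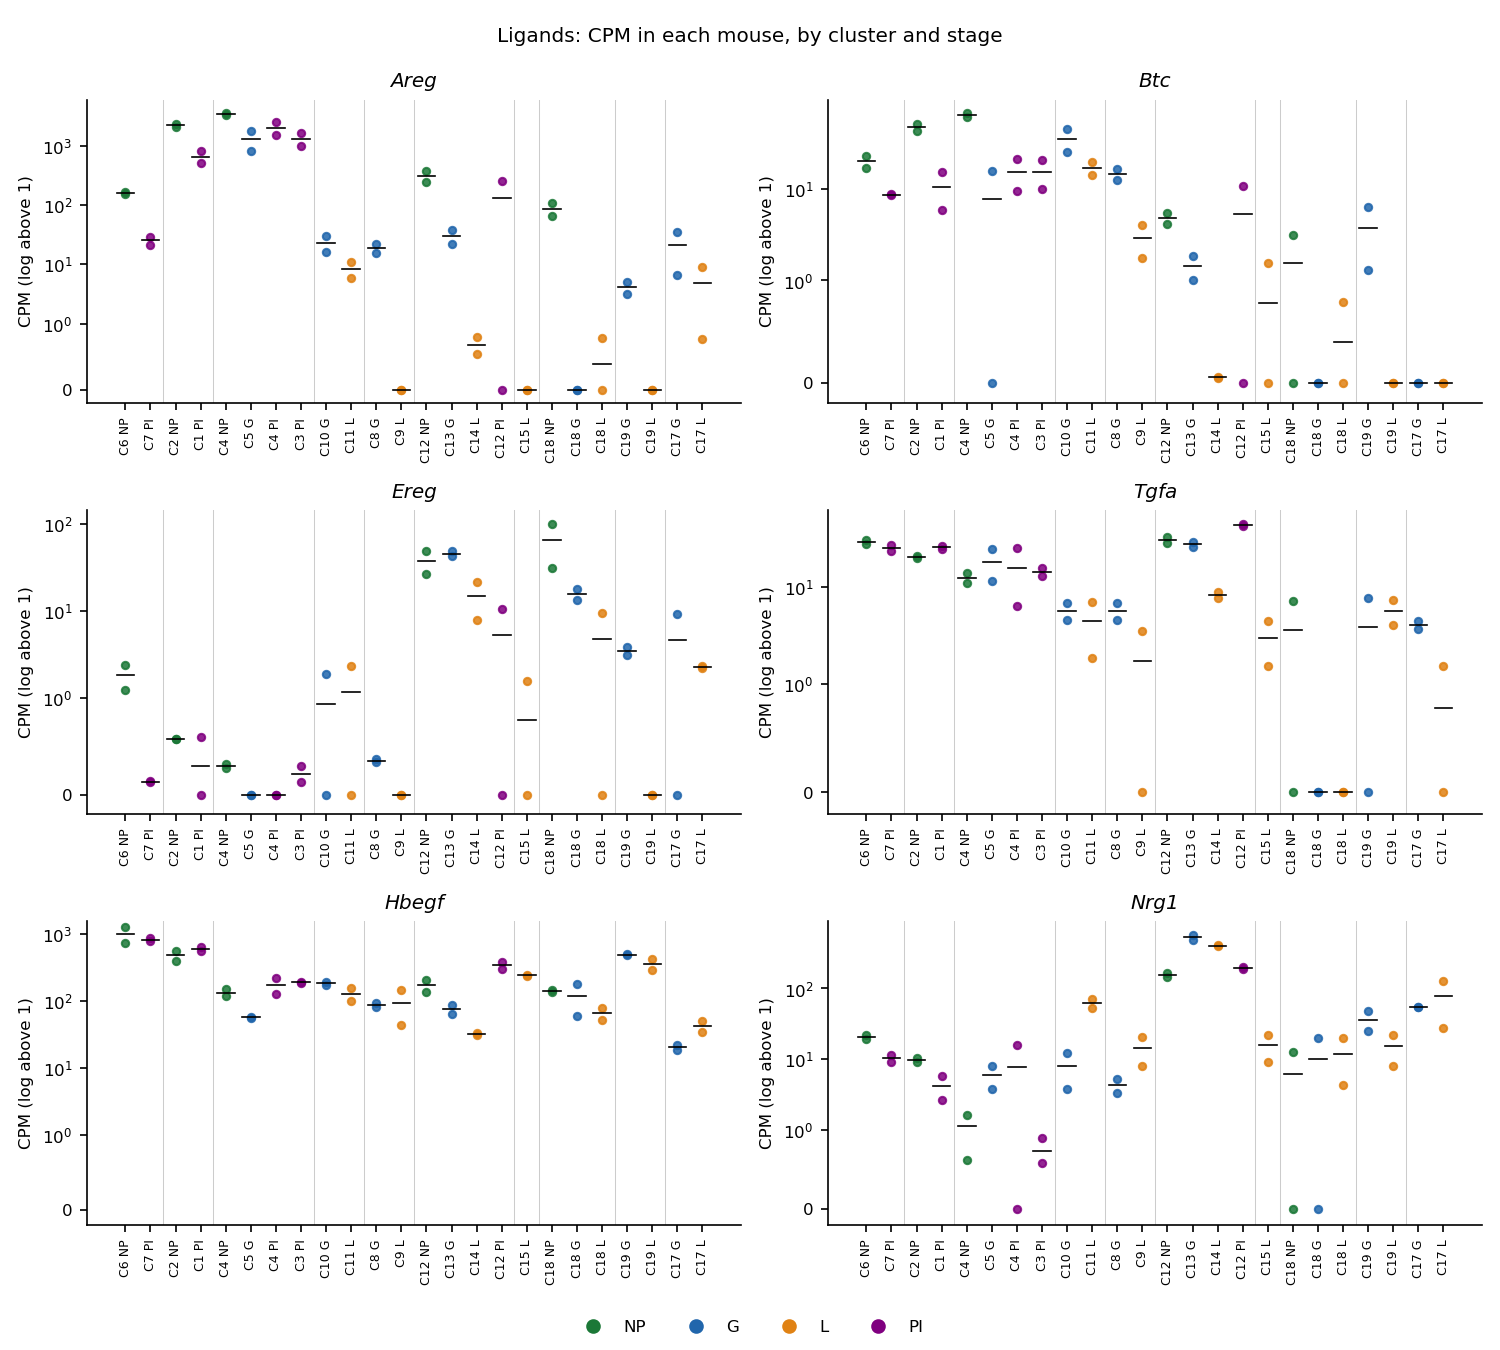
Level of each ligand in CPM (log axis above 1) in the cluster and stage pairs measured in 2 mice, with 1 point per mouse coloured by stage and a bar at the mean. Areg and Btc were highest in Hs cells of NP mice (Areg 3216 and 3478.5 CPM in C4), Hbegf in luminal progenitors, Nrg1 in basal cells of G and L mice, and Ereg in basal cells and NP fibroblasts.

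The receptors divided differently. Egfr was highest in fibroblasts (C18), with 347 and 265 CPM in NP mice, 240 and 166 CPM in G mice and 174 and 165 CPM in L mice, and it was higher in fibroblasts than in basal cells of the same mouse in 7 of 7 mice, by 1.74 on average on the log2 scale (SD 0.68). Among epithelial cells, basal cells of G and L mice held 73.6 and 83.5 CPM and 61.3 and 74.7 CPM, Lp cells of NP mice 61.6 and 57.2 CPM and basal cells of NP mice 51.2 and 43.9 CPM. The Hs cells with the most Areg held little Egfr, at 1.58 and 1.45 CPM in C4, from 20 and 21 UMIs in 971 and 1212 cells, and no Egfr UMI was seen in C5 of G mice. Zero UMIs in the 20 and 41 cells of C5 do not show that the gene was silent, since a count of 0 there allows up to 24.3 and 11.6 CPM. The Hs progenitors of NP mice held 21.8 and 23.98 CPM of Egfr, so that the level was lower in differentiated than in progenitor Hs cells in both of these mice.

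Erbb3 was a luminal transcript. It was 72.8 and 91.5 CPM in C8 and 73.0 and 89.0 CPM in C5 of G mice, and these ranges overlapped. C4 of NP mice held 68.4 and 72.1 CPM, C2 69.8 and 71.1 CPM and C10 69.6 and 69.9 CPM. The ranges of C4, C2 and C10 overlapped each other and lay below those of C8 and C5. Lp cells held less, namely 45.3 and 47.3 CPM in NP mice (C6) and 25.97 and 22.7 CPM in PI mice (C7), and basal cells of L mice held 0.994 and 0.602 CPM. Erbb3 was lower in basal than in luminal cells in 8 of 8 mice. Erbb2 was highest in C5 of G mice, at 40.6 and 38.7 CPM from 5 and 10 UMIs, and lay between 15.3 and 24.96 CPM in C2, C6, C10 and C4 of NP mice. NP basal cells held 11.3 and 10.5 CPM of Erbb2. Erbb4 stood out in C5, with 48.7 and 96.8 CPM (6 and 25 UMIs) ahead of Lp cells, with 14.2 and 12.03 CPM in NP mice (C6) and 9.60 and 10.04 CPM in PI mice (C7). Alveolar progenitors and differentiated alveolar cells of G mice held 7.65 and 9.36 CPM and 5.90 and 7.24 CPM. In differentiated Hs cells of NP mice Erbb4 was 0.553 and 0.0689 CPM, from 7 UMIs and 1 UMI.

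**Figure D2:**
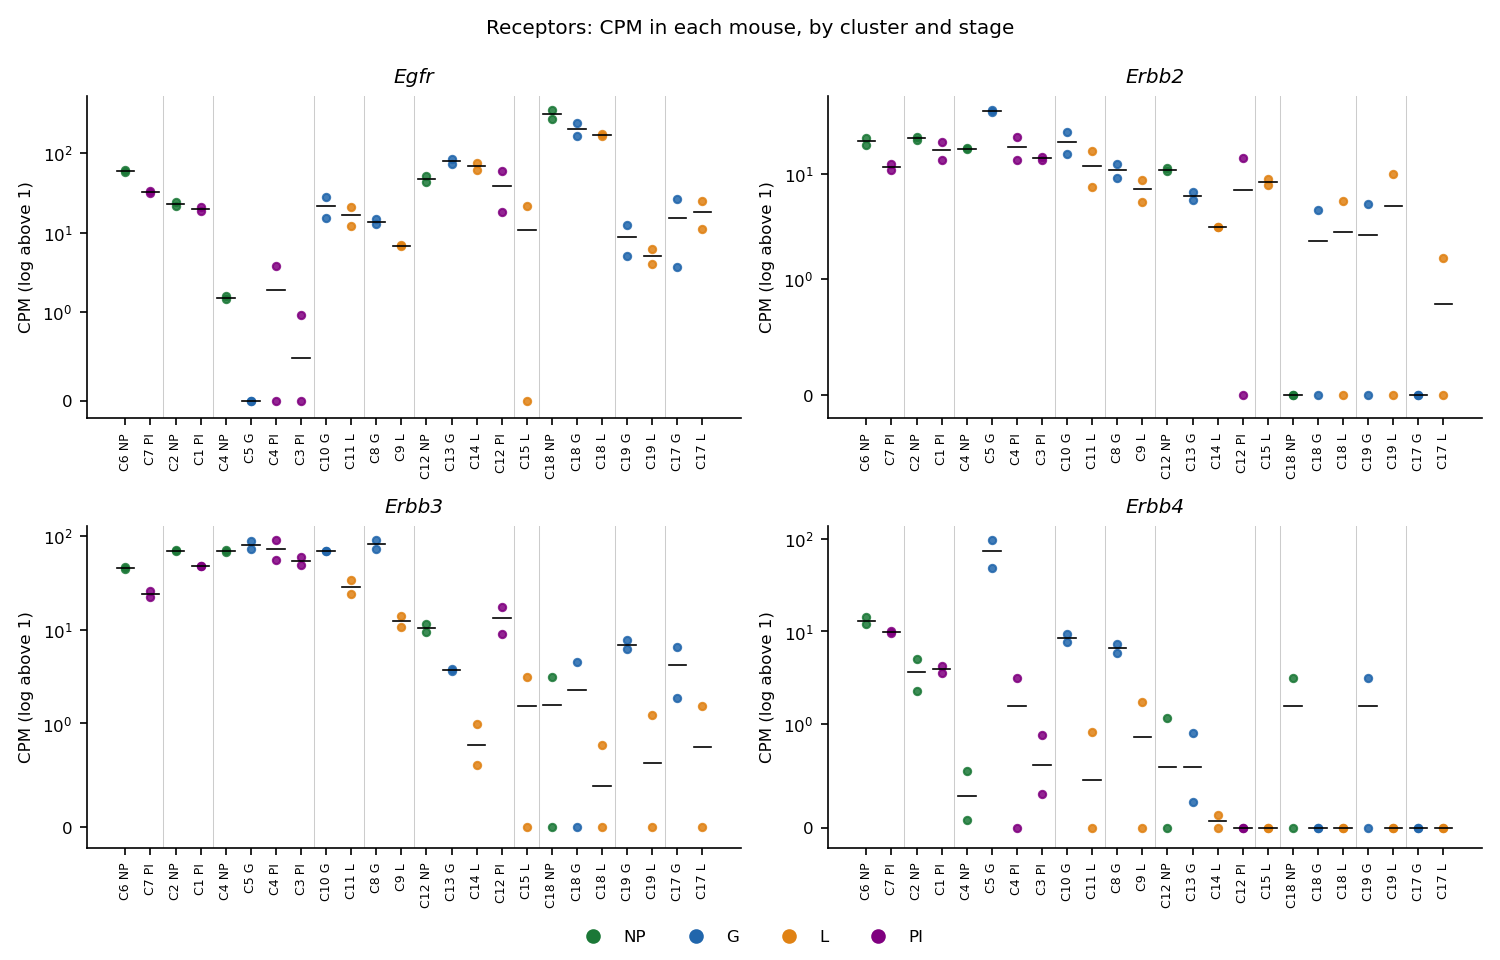
Level of each receptor in CPM (log axis above 1) in the cluster and stage pairs measured in 2 mice, with 1 point per mouse coloured by stage and a bar at the mean. Egfr was highest in fibroblasts (347 and 265 CPM in NP mice) and near 0 in differentiated Hs cells, Erbb3 was high in luminal and low in basal cells, and Erbb4 stood apart in C5 of G mice.

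**Figure D3:**
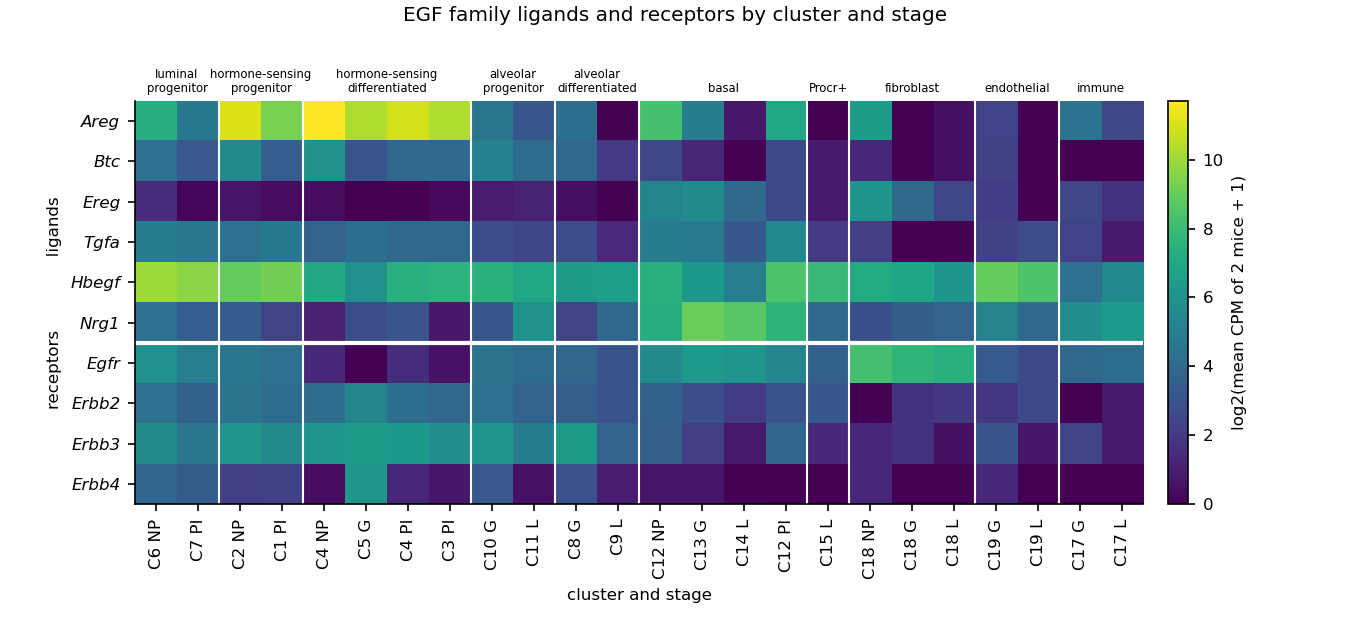
Heat map of log2 of the mean CPM of 2 mice plus 1, for the 6 ligands above the white line and the 4 receptors below it, by cluster and stage. The brightest cells are Areg in Hs clusters (mean 3347 CPM in C4), Hbegf in Lp cells (mean 1008 CPM in C6) and Nrg1 in basal cells of G mice (mean 533 CPM).

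Free RNA in a droplet library gives every cell a low level of the genes of abundant cell types, so each low level was set beside the markers of the cell type it could come from, as a percentage of that type's CPM in the same mouse. Areg in NP Lp cells was 4.79% and 4.83% of its level in C4, within the range of the 4 Hs markers there (2.65% to 6.39% and 2.06% to 7.29%), although 52.7% and 52.5% of C6 cells had an Areg UMI. After thinning to 1000 UMIs per cell, that share was 13.2% and 12.98%, against 82.3% and 82.8% in C4. In fibroblasts of the same mice, 20.8% and 30.4% of cells had an Areg UMI, and median depths were 7767.5 and 6597 UMIs in C6, 10163 and 10309 in C4 and 5336 and 4980 in C18. Areg in NP basal cells was 7.70% and 10.8% of C4, again within the marker range (6.998% to 13.2% and 9.21% to 17.8%). In fibroblasts Areg was 3.37% and 1.89% of C4, below the Lp and basal values of both mice. The part of free RNA in the Areg levels of Lp and basal cells was not tested.

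Other low levels lay above or within the marker range. Btc in C6 was 25.5% and 37.8% of its C4 level, above every Hs marker there, whereas Btc in NP basal cells was 8.16% and 6.82%, within and below the marker range. Nrg1 in C6 was 14.7% and 11.5% of its C12 level, above the 4 basal markers (0.900% to 1.73% and 0.464% to 1.11%). Nrg1 in alveolar cells was within or near the range of these markers. It was 0.677% and 0.928% of C13 in C8 (markers at 0.4904% to 1.04% and 0.656% to 1.096%), 5.16% and 2.04% of C14 in C9 (4.27% to 6.27% and 1.84% to 4.27%), and 17.8% and 13.3% of C14 in C11 against markers at 13.6% to 17.5% and 10.7% to 14.1%. Egfr in C6 was 120% and 130% of its C12 level. Erbb3 in basal cells was within the range of the 3 luminal markers (Krt8, Krt18, Krt19) in NP mice, at 16.8% and 13.3% of C4, and in G mice at 5.21% and 3.999% of C8. Erbb2 in basal cells was above it, at 64.4% and 61.3% of C4 in NP mice and 61.3% and 53.2% of C8 in G mice.

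**Figure D4:**
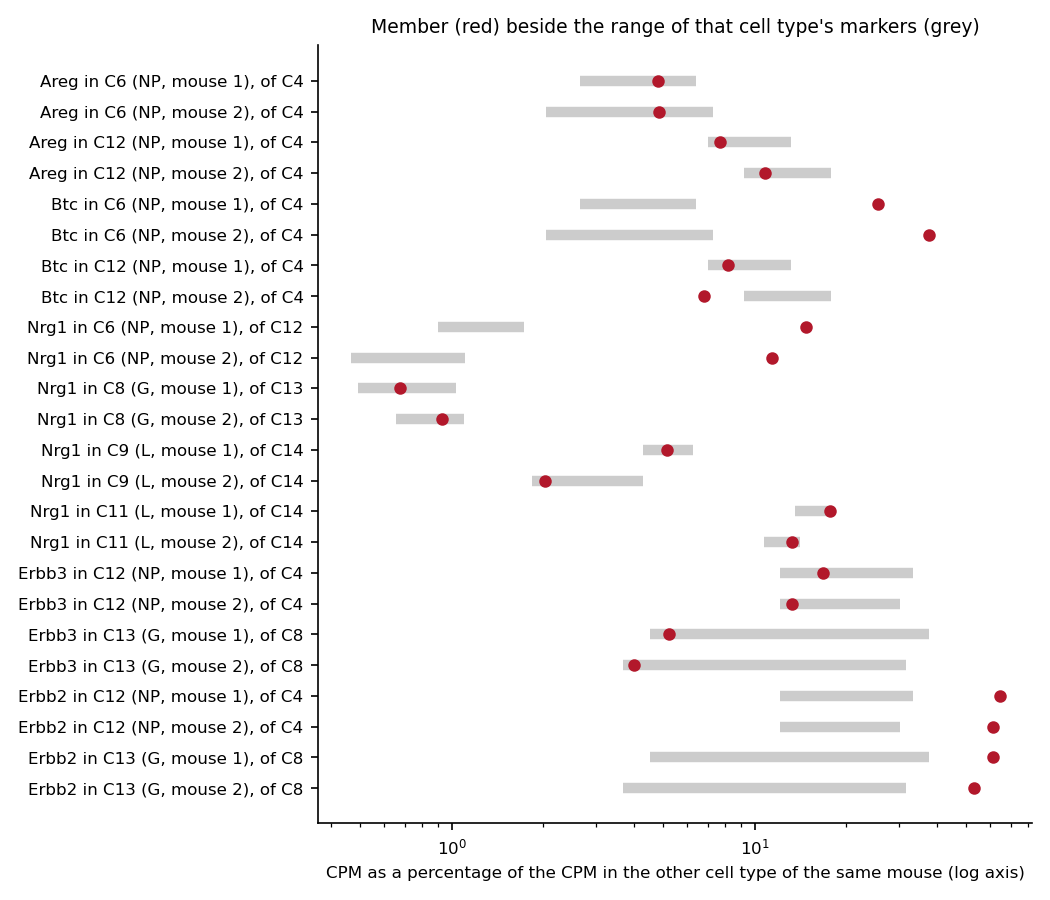
Level of a member in one cell type as a percentage of its CPM in another cell type of the same mouse (red points, log axis), beside the range of the markers of that other cell type (grey bars). Areg in C6 and C12, Nrg1 in C8 and C9 and Erbb3 in basal cells lie within the bars, whereas Btc and Nrg1 in C6 and Erbb2 in basal cells lie to the right of them.

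Between NP and PI mice, the question was which members differ in the luminal lineages after a full cycle of pregnancy, lactation and involution. In Lp cells (C6 and C7 together), 6 of the 9 members tested were lower in PI mice and none was higher, where 26.9% of the 10766 genes tested passed, with 13.9% higher and 13% lower. Tests across genes used the edgeR quasi-likelihood F-test with Benjamini-Hochberg adjustment over all genes of a comparison, called at an adjusted p under 0.05, and fold changes are log2 with TMM scaling. The median log2 fold change was -0.77 over the 9 members and -0.02 over all genes. Members under the filter on low counts were not tested, which left out Ereg in every luminal and alveolar class, Erbb4 in differentiated Hs cells between NP and PI, in basal cells and in alveolar progenitors, Btc in L and PI basal cells, Tgfa in alveolar progenitors and Egfr in C5. Egfr was 61.6 and 57.1 CPM in NP mice and 34.2 and 31.8 CPM in PI mice, with no overlap (log2 fold change -0.77, SE 0.14, edgeR adjusted p = 0.0025). Erbb3 was 45.3 and 47.2 CPM against 26.9 and 22.8 CPM (log2 fold change -0.81, SE 0.16, edgeR adjusted p = 0.0032). Both receptors of Lp cells with the highest levels thus fell in PI mice.

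Among the ligands of Lp cells, Btc was 16.9 and 22.8 CPM in NP mice and 8.75 and 8.35 CPM in PI mice (log2 fold change -1.11, SE 0.23, edgeR adjusted p = 0.0048). Areg was 154 and 168 CPM against 21.2 and 29.04 CPM (log2 fold change -2.59, SE 0.17, edgeR adjusted p = 2.8e-06), and the NP levels lay within the range of the Hs markers, as given above. Hbegf, the ligand with the highest level in these cells, was 1269.6 and 752 CPM in NP mice and 766 and 872 CPM in PI mice, so the mice of both stages overlapped (edgeR adjusted p = 0.46). Erbb4 was 14.2 and 12.01 CPM against 9.81 and 9.97 CPM and did not pass the test (edgeR adjusted p = 0.31). Nrg1 also passed, with 21.7 and 19.04 CPM against 9.28 and 12.1 CPM (log2 fold change -0.85, SE 0.22, edgeR adjusted p = 0.014). So did Erbb2, with 18.7 and 21.9 CPM against 12.5 and 10.7 CPM (log2 fold change -0.72, SE 0.21, edgeR adjusted p = 0.024). Nrg1 did not pass without NP1 (edgeR adjusted p = 0.083) or PI1 (0.059), nor Erbb2 without NP2 (0.12) or PI2 (0.078). Neither passed in DESeq2 or at equal depth. Other lists moved in the same comparison. The milk protein genes were higher in PI mice (7 of 7 tested), at a summed level of 770 and 1445 CPM in NP C6 and 13656 and 14679 CPM in PI C7. Both immune markers tested, Lyz2 and Cd74, were higher (summed level 9.96 and 13.3 CPM in C6 and 32.3 and 32.004 CPM in C7), and of 2 fibroblast markers tested Col1a2 was lower (summed level 6.04 and 175 CPM in C6 and 0.271 and 16.7 CPM in C7). Their part in the member results was not tested.

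In Hs progenitors (C1 and C2), 3 of 9 members tested were lower in PI mice and none was higher, where 16.6% of genes passed, with 9.58% higher and 7.05% lower. Areg was 2049.8 and 2306 CPM in NP mice and 525 and 805 CPM in PI mice (log2 fold change -1.72, SE 0.22, edgeR adjusted p = 0.00029). Btc was 42.1 and 49.99 CPM against 5.64 and 15.1 CPM (log2 fold change -1.95, SE 0.28, edgeR adjusted p = 0.00064). Both ligands were lower in each PI mouse than in either NP mouse. Erbb3 was 69.9 and 71.1 CPM against 47.7 and 48.6 CPM (log2 fold change -0.56, SE 0.14, edgeR adjusted p = 0.018), a call that was lost without NP1 (edgeR adjusted p = 0.11) or NP2 (0.18). Nrg1, at 9.08 and 10.4 CPM against 2.56 and 5.75 CPM, did not pass (edgeR adjusted p = 0.065) but did without PI2 (log2 fold change -1.93, edgeR adjusted p = 0.0070). Erbb2 (22.4 and 21.1 against 19.99 and 13.5 CPM) passed without PI1 (log2 fold change -0.67, edgeR adjusted p = 0.042).

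In differentiated Hs cells (C3 and C4), 2 of 8 members tested were lower in PI mice and none was higher, where 14.3% of genes passed, with 7.64% higher and 6.65% lower. Areg was 3218 and 3474 CPM in NP mice and 1034 and 1624 CPM in PI mice (log2 fold change -1.38, SE 0.26, edgeR adjusted p = 0.0055). Btc was 67.03 and 60.2 CPM against 9.86 and 20.5 CPM (log2 fold change -1.97, SE 0.25, edgeR adjusted p = 0.00043). Both ligands also passed in Hs progenitors, and in C3 and C4 both passed without each mouse in turn. The vaginal smears described by the study placed both NP mice and PI2 in oestrus and PI1 in dioestrus. Areg and Btc were lower in PI1 than in PI2 in both Hs classes, and PI2 lay below both NP mice, while the part of the cycle stage in the difference was not tested. Within C4 alone, to which some cells of PI mice were assigned, Areg was 1512 and 2493 CPM in PI mice against 3216 and 3478.5 CPM in NP mice, from 40 and 88 PI cells. Without PI1, Hbegf (log2 fold change 0.51, edgeR adjusted p = 0.039) and Erbb3 (log2 fold change -0.51, edgeR adjusted p = 0.033) also passed, and without PI2 Egfr passed, which then had no UMI in PI1.

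The size of the Areg change differed between luminal classes. Over these 3 classes fitted together with mouse as a term, the fall of Areg was smaller in Hs progenitors than in Lp cells by 0.85 on the log2 scale (SE 0.14, edgeR adjusted p = 0.00094), where 3.55% of 11743 genes passed, with 1.62% higher and 1.93% lower. The Areg levels of NP Lp cells, on which this difference and the next one rest, lay within the range of the Hs markers, and the part of free RNA was not tested. Against Lp cells, the change in differentiated Hs cells differed by 1.21 for Areg (SE 0.14, edgeR adjusted p = 2.2e-06), 0.64 for Hbegf (SE 0.14, edgeR adjusted p = 0.0027) and -0.93 for Btc (SE 0.31, edgeR adjusted p = 0.040), where 20.2% of genes passed, with 9.84% higher and 10.4% lower. The 2 Hs classes did not differ in the Areg change by this test (0.36, SE 0.12, edgeR adjusted p = 0.10), where 3.82% of genes passed, with 1.12% higher and 2.7% lower. Without a term for the mouse none of these 4 differences passed, and without NP1 the Hbegf and Btc differences did not (edgeR adjusted p = 0.16 and 0.30), nor did that of Btc without PI1 (0.24).

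At day 14.5 of gestation, differentiated Hs cells were few (61 in both G mice, in C5), and the question was how they differed from those of NP mice (C4). One member was higher and 3 were lower of 8 tested, where 18.7% of genes passed, with 8.04% higher and 10.6% lower. Erbb4, the receptor of neuregulins, rose from 0.553 and 0.0689 CPM to 48.7 and 96.8 CPM (log2 fold change 7.74, SE 0.62, edgeR adjusted p = 3.7e-33), and 25.0% and 34.1% of C5 cells had an Erbb4 UMI. The differentiated alveolar cells, which hold most of the RNA of G libraries, had 5.90 and 7.24 CPM of Erbb4, below both C5 values. The part of free RNA in the C5 level was not tested. Areg fell from 3216 and 3478 CPM to 819.5 and 1742 CPM (log2 fold change -1.58, SE 0.21, edgeR adjusted p = 9.4e-13). Btc fell from 66.2 and 60.4 CPM to 0 and 15.5 CPM, or 0 and 4 UMIs (log2 fold change -2.84, SE 0.53, edgeR adjusted p = 1.7e-06). Hbegf was 149.99 and 118 CPM against 56.8 and 58.1 CPM (log2 fold change -1.45, SE 0.31, edgeR adjusted p = 3.4e-05). Erbb3 was 68.4 and 72.1 against 73.0 and 89.0 CPM (edgeR adjusted p = 0.99).

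The C5 values of Erbb4, Btc and Hbegf rest on 31, 4 and 22 UMIs. Without G2 Hbegf did not pass (log2 fold change -1.51, edgeR adjusted p = 0.071) and Erbb4 fell under the filter on low counts, as did Erbb4 and Btc when the mice were thinned to the depth of the shallowest sum. TMM scaling shifted the G mice by -0.25 on the log2 scale against plain CPM here. Other genes of the hormone response moved in the same cells, with 4 of 8 tested higher and 2 lower. Tnfsf11, which encodes RANKL, was 2.61 and 1.65 CPM in NP mice and 617 and 677 CPM in G mice (log2 fold change 8.02, SE 0.24, edgeR adjusted p = 2.9e-241). Prlr, the prolactin receptor gene, fell from 2277 and 2225 CPM to 811 and 1060.5 CPM (log2 fold change -1.49, SE 0.20, edgeR adjusted p = 1.3e-11). The markers of luminal cells were lower in C5 (3 of 3, summed level 7749 and 7830 CPM against 18623 and 14445 CPM in C4), and of the immune markers Lyz2 was higher (105 and 65.8 CPM against 0.789 and 0.138 CPM). Their part in these results was not tested.

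Basal cells gained Nrg1 and Egfr at gestation. Between NP and G basal cells (C12 and C13), 2 members were higher and 4 lower of 9 tested, where 46.2% of genes passed, with 24.3% higher and 21.9% lower. Nrg1 was 147 and 169 CPM in NP mice and 490.2 and 567 CPM in G mice (log2 fold change 1.83, SE 0.14, edgeR adjusted p = 4.7e-08). Egfr was 51.2 and 43.7 CPM against 73.9 and 83.04 CPM (log2 fold change 0.80, SE 0.15, edgeR adjusted p = 0.00036). The 4 fibroblast markers also rose in basal cells (summed level 173 and 252 CPM in NP and 866 and 669 CPM in G mice), and in G fibroblasts themselves they summed to 42150 and 48202 CPM beside 240 and 166 CPM of Egfr. Hbegf was lower, at 208 and 134 CPM against 87.5 and 66.0 CPM (log2 fold change -1.08, SE 0.18, edgeR adjusted p = 0.00013), and these 3 calls held without each mouse in turn.

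Areg, Erbb3 and Btc, whose levels in NP basal cells lay within or below the range of the luminal or Hs markers, were lower there in G mice, together with the markers of luminal and Hs cells. Areg was 248 and 376 CPM in NP mice and 22.7 and 37.0 CPM in G mice (log2 fold change -3.28, SE 0.22, edgeR adjusted p = 1.7e-08). Erbb3 was 11.5 and 9.56 CPM against 4.03 and 4.04 CPM (log2 fold change -1.31, SE 0.33, edgeR adjusted p = 0.0040). Btc also passed (log2 fold change -1.67, SE 0.49, edgeR adjusted p = 0.011). All 4 Hs markers fell as well, from a summed level of 278 and 305 CPM to 17.9 and 15.6 CPM. So did the 3 luminal markers, from 4289 and 2809 CPM to 855 and 852 CPM, with none of either list at 0, and their part in the result was not tested. Btc was lost without NP1 (edgeR adjusted p = 0.20) or G1 (0.11) and Erbb3 without NP1 (0.063), and without NP1 Ereg passed as higher (log2 fold change 0.84, edgeR adjusted p = 0.012).

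In lactation the basal cells (C14, against C13 of G mice) had lower levels of most EGF ligands. Of 8 members tested 6 were lower and none was higher, where 48.2% of genes passed and 24.1% were lower, and the median log2 fold change was -1.31 over the members and 0.04 over all genes. Tgfa was 25.7 and 29.3 CPM in G mice and 8.80 and 7.64 CPM in L mice (log2 fold change -1.63, SE 0.18, edgeR adjusted p = 0.00020). Hbegf was 87.2 and 63.8 CPM against 31.8 and 33.5 CPM (log2 fold change -1.10, SE 0.17, edgeR adjusted p = 0.0011). Ereg was 42.6 and 48.7 CPM against 7.81 and 21.8 CPM (log2 fold change -1.53, SE 0.40, edgeR adjusted p = 0.013), and this call was lost in DESeq2 (log2 fold change -1.52, adjusted p = 0.092) while the log2 fold change ranged from -2.43 to -0.93 over the alternatives. Areg went from 21.9 and 37.7 CPM to 0.804 and 0.542 CPM (log2 fold change -5.32, SE 0.36, edgeR adjusted p = 1.9e-05). These 4 ligands were lower in each L mouse than in either G mouse. Areg in G basal cells was 2.68% and 2.17% of its C5 level in the same mouse. That was above the 2 Hs markers scored in G1 (0.167% to 0.218%) and within the range of 3 in G2 (0.092% to 5.53%). The L libraries held few Hs cells (2 cells of C5 in L1 and 1 of C4 in L2). The part of free RNA in the Areg result was not tested. Marker lists moved as well, with the 4 basal markers higher (summed level 19291 and 15142 CPM in G and 36787 and 33091 CPM in L mice) and Krt19 and Krt8 of 3 luminal markers higher (summed level 855 and 852 against 2113 and 1395.5 CPM). Lyz2 and Cd74 of 3 immune markers tested were lower (summed level 217 and 249.8 against 127 and 112 CPM), and 12 of 12 genes of the response to tissue dissociation were higher. Their part in the result was not tested.

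Nrg1 and Egfr did not pass the same comparison. Nrg1 was 490.2 and 574 CPM in G mice and 406 and 397 CPM in L mice (edgeR adjusted p = 0.064), and passed without G1 (log2 fold change -0.42, edgeR adjusted p = 0.028). Egfr was 73.4 and 83.5 CPM against 61.4 and 74.7 CPM, with overlapping mice (edgeR adjusted p = 0.63). Erbb3 was 3.78 and 3.66 CPM against 0.994 and 0.602 CPM (log2 fold change -2.07, SE 0.43, edgeR adjusted p = 0.0044). As given above, Erbb3 in G basal cells lay within the range of the luminal markers, and the part of free RNA was not tested. Erbb2 was 5.55 and 6.63 CPM against 3.08 and 3.07 CPM (log2 fold change -0.88, SE 0.28, edgeR adjusted p = 0.032) and was lost without G2, L1 or L2 (edgeR adjusted p = 0.16, 0.077 and 0.067).

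Between PI and NP basal cells (C12), 1 member of 8 tested passed, where 7.49% of genes did, with 4.51% higher and 2.98% lower. Hbegf was 208 and 135 CPM in NP mice and 305 and 380.5 CPM in PI mice (log2 fold change 1.01, SE 0.22, edgeR adjusted p = 0.0042). Nrg1 was 147 and 167 CPM against 188 and 204 CPM and did not pass (edgeR adjusted p = 0.41). Areg was 248 and 377 CPM against 0 in PI1 and 257 CPM in PI2, which split as the summed Hs markers did (8.96 CPM in PI1 and 842 CPM in PI2). The PI sums held 34 and 108 Hbegf UMIs in 27 and 53 cells, and the Hbegf call was lost without NP2 (edgeR adjusted p = 0.50), without PI2 (0.17) and at equal depth. Areg passed as lower without NP1 (log2 fold change -1.41, edgeR adjusted p = 0.010) and without PI2, and Ereg without PI1 (log2 fold change -1.94, edgeR adjusted p = 0.029) or PI2, where both genes had no UMI in the remaining PI1. The immune markers summed to 851 CPM in PI1 and 10.6 CPM in PI2, and their part was not tested.

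In alveolar cells the comparison of L with G mice asked how the secretory cells differ once milk is made. In alveolar progenitors (C10 and C11), 1 member was higher and 1 lower of 7 tested, where 28% of genes passed, with 15.7% higher and 12.3% lower. Erbb3 fell from 69.6 and 69.9 CPM to 24.8 and 33.4 CPM (log2 fold change -0.99, SE 0.23, edgeR adjusted p = 0.010), and did not pass without L1 (log2 fold change -0.79, edgeR adjusted p = 0.052). Btc was 44.4 and 25.0 CPM against 19.5 and 17.3 CPM and Hbegf 194 and 174 CPM against 100.2 and 158 CPM, and neither passed (edgeR adjusted p = 0.24 and 0.40), although Hbegf passed as lower without L2 (log2 fold change -0.55, edgeR adjusted p = 0.028). Areg, at 16.1 and 29.9 CPM against 11.5 and 5.75 CPM, passed as lower without G1 (edgeR adjusted p = 0.022), without L1 (0.016) or with no filter on low counts (log2 fold change -1.14, edgeR adjusted p = 0.019). Erbb4, which was under the filter there, passed with no filter and without L1.

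In differentiated alveolar cells (C8 and C9), 2 members were higher and 2 lower of 9 tested, where 18.7% of genes passed, with 9.54% higher and 9.17% lower. Erbb3 fell from 72.8 and 91.5 CPM to 13.9 and 10.7 CPM (log2 fold change -1.85, SE 0.30, edgeR adjusted p = 0.0011). Areg was 15.5 and 22.4 CPM in G mice and had no UMI in the 43 and 48 cells of L mice (edgeR adjusted p = 0.0089). In plain CPM this is at least 8.36-fold lower than in G mice when 3 counts are allowed over both L sums. The TMM shift of L mice, 0.90 on the log2 scale, makes this bound smaller on the scale of the test. The Areg call was lost without G2, and at equal depth Areg fell under the filter on low counts. Areg in C8 was 1.90% and 1.29% of its C5 level, within the range of the Hs markers scored there, and the part of free RNA was not tested. Hbegf was called higher (log2 fold change 1.07, SE 0.34, edgeR adjusted p = 0.042), but the mice overlapped, at 93.9 and 81.6 CPM in G and 43.3 and 145 CPM in L, and TMM scaling shifted L mice by 0.90 on the log2 scale against CPM. Without L2 the Hbegf change turned to -0.20 and did not pass, without G2 it was 1.08 (edgeR adjusted p = 0.26), and with the milk protein genes left out it was 1.06 (edgeR adjusted p = 0.052).

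Nrg1 was called higher in both alveolar classes, beside a rise of basal cell markers. It was 3.83 and 12.5 CPM against 70.01 and 51.8 CPM in alveolar progenitors (log2 fold change 3.12, SE 0.40, edgeR adjusted p = 0.00048). In differentiated cells it was 3.33 and 5.33 CPM against 20.8 and 8.05 CPM (log2 fold change 2.58, SE 0.55, edgeR adjusted p = 0.0059). All 4 basal markers rose too in each class, from a summed level of 133 and 211 CPM in C10 to 5239 and 3768 CPM in C11 and from 118 and 114 CPM in C8 to 2197.5 and 952 CPM in C9, with none of them at 0. As given above, Nrg1 in C9 and in C11 of L2 was within the percentage range of these markers, and in C11 of L1 it was 17.8% against 17.5% for the highest marker. The call in differentiated cells was lost without G1, G2 or L1 (log2 fold changes 2.50, 3.10 and 1.84, edgeR adjusted p = 0.092, 0.16 and 0.12).

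**Figure D5:**
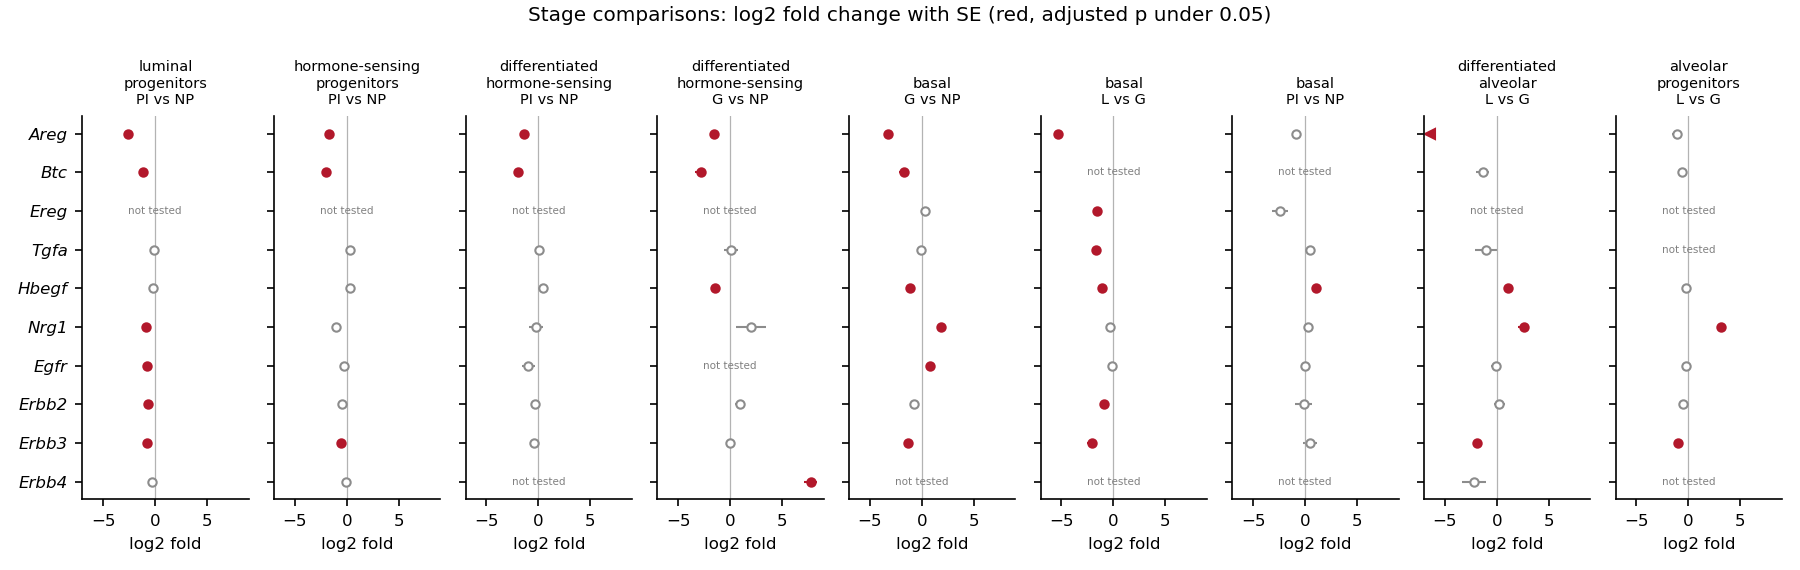
Log2 fold change of each member in the 9 stage comparisons, as points with SE bars, filled red where the edgeR adjusted p was under 0.05 and open grey otherwise. Areg passed as lower in 7 of the 9 panels (the arrow in differentiated alveolar cells marks a gene with no UMI in L mice), Nrg1 passed as higher in basal cells of G mice, and Erbb4 passed as higher in differentiated Hs cells of G mice.

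Whether a change differed between the other cell classes was tested in the same way, with contrasts chosen after the data were seen. The PI against NP change of Hbegf was more positive in basal than in Lp cells by 0.95 on the log2 scale (SE 0.20, edgeR adjusted p = 0.0044), and that of Areg by 1.37 (SE 0.41, edgeR adjusted p = 0.042), where 7.92% of genes passed. Areg in NP cells of both classes lay within the range of the Hs markers. No member passed for basal against Hs progenitors or against differentiated Hs cells, where 5% and 6.24% of genes did. The G against NP change was lower in basal than in differentiated Hs cells for Erbb4 (by -7.37, SE 1.67, edgeR adjusted p = 0.00017), Erbb2 (by -1.49, SE 0.57, edgeR adjusted p = 0.049) and Areg (by -1.47, SE 0.18, edgeR adjusted p = 2.2e-14), where 17.1% of genes passed. The 2 Erbb4 values compared rest on few UMIs, namely 5 and 5 in NP and G basal cells, where Erbb4 was under the filter on low counts, and 31 in C5. Erbb2 in C5 rests on 5 and 10 UMIs. It passed in neither stage comparison alone (edgeR adjusted p = 0.14 in differentiated Hs and 0.054 in basal cells). Areg in NP basal cells lay within the range of the Hs markers, and the part of free RNA was not tested.

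For L against G, the Nrg1 change was lower in basal cells than in alveolar progenitors (by -3.39, SE 0.34, edgeR adjusted p = 3.7e-08) and than in differentiated alveolar cells (by -2.89, SE 0.50, edgeR adjusted p = 0.00015), where 20.3% and 19.4% of genes passed. Hbegf differed in the same direction (by -0.75, SE 0.26, edgeR adjusted p = 0.045, and by -2.10, SE 0.29, edgeR adjusted p = 6.6e-06). The Nrg1 levels of C9 and C11 lay within or near the percentage range of the basal markers, and the part of free RNA was not tested. Against alveolar progenitors Areg (by -4.15, SE 0.56, edgeR adjusted p = 5.4e-06) and Btc (by -3.66, SE 0.98, edgeR adjusted p = 0.0080) also passed. Btc in basal cells had 4 and 8 UMIs in G mice and 1 and 1 in L mice, under the filter of the basal comparison, and entered this fit through the alveolar cells. Between the alveolar classes, Hbegf passed (1.35 higher in differentiated cells, SE 0.30, edgeR adjusted p = 0.0093), where 3.17% of genes did. The mean CPM of Hbegf in differentiated cells was 87.7 in G and 94.1 in L mice, and its change there rested on L2 and on the TMM shift given above. The same change enters the Hbegf difference of -2.10 between basal and differentiated alveolar cells. Of these 12 differences 8 held without a term for the mouse, and the others were both of basal against Lp cells and those of Hbegf against alveolar progenitors.

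The other genes of the pathway were followed as lists of further ligands, of proteases that shed the ligands, of receptor inhibitors, of adaptors and kinases, and of feedback and target genes of the ERK kinases that act downstream of the receptors. In basal cells 11 of 16 ERK feedback and target genes tested rose and none fell from NP to G (median log2 fold change 1.31, against 0.01 over all genes), where 46.2% of all genes passed. From G to L 2 rose and 10 fell of 16 (median -0.67), where 48.2% of all genes passed, and from NP to PI 5 of 14 rose, where 7.49% did. Spry2, an inhibitor of the pathway, was 35.96 and 41.9 CPM in NP and 185 and 143 CPM in G basal cells (log2 fold change 2.18, SE 0.16, edgeR adjusted p = 5.6e-08). Dusp6, an ERK phosphatase gene, was 175 and 151 CPM against 585 and 542 CPM (log2 fold change 1.87, SE 0.13, edgeR adjusted p = 1.9e-08). Etv4, an ETS transcription factor gene, fell from 20.2 and 21.5 CPM in G to 1.56 and 0.903 CPM in L basal cells (log2 fold change -3.93, SE 0.29, edgeR adjusted p = 3.0e-05). Errfi1, whose product binds and inhibits EGFR, was 473 and 420.2 CPM in NP, 2538.5 and 2536 CPM in G and 769 and 697 CPM in L basal cells (log2 fold changes 2.59, SE 0.13, and -1.69, SE 0.099, edgeR adjusted p = 4.4e-10 and 1.2e-05). In PI basal cells it was 878 and 1007.5 CPM (log2 fold change 1.07, SE 0.18, edgeR adjusted p = 0.00041). The list of genes known to respond to tissue dissociation, which shares immediate early responses with ERK signalling, also rose in basal cells, with 10 of 12 higher from NP to G, 12 of 12 from G to L and 9 of 12 from NP to PI, and its part in these changes was not tested.

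In luminal cells the ERK list was mixed. From NP to PI 2 of 14 rose and 3 fell in Lp cells, where 26.9% of all genes passed, 1 of 14 fell in Hs progenitors (16.6%), and 2 of 16 rose and 4 fell in differentiated Hs cells (14.3%). In differentiated Hs cells of G mice 2 of 16 fell (18.7%). In L against G, 4 of 12 rose in alveolar progenitors (28%), and 1 rose and 3 fell of 15 in differentiated alveolar cells (18.7%). Dissociation genes rose there too (11 of 12 and 9 of 12).

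Of the shedding proteases, Adam17, whose product releases AREG, HBEGF and TGFA, fell in Lp cells from 24.4 and 24.01 CPM in NP to 9.67 and 9.22 CPM in PI mice (log2 fold change -1.28, SE 0.19, edgeR adjusted p = 0.00071), as 1 of 7 tested. In Hs progenitors 1 of 7 fell (Adam10), where 16.6% of all genes passed. In differentiated Hs cells 0 of 7 passed from NP to PI (14.3% of all genes), and 1 of 7 fell in G mice (Rhbdl2, 18.7% of all genes). In basal cells 1 of 9 fell from NP to G, and 2 rose and 3 fell of 9 from G to L. Of the receptor inhibitors, 1 of 9 fell in Lp cells, namely Socs5 (119.5 and 125 CPM against 41.1 and 32.8 CPM, log2 fold change -1.65, SE 0.15, edgeR adjusted p = 2.1e-05). In basal cells 3 of 9 inhibitors rose and 2 fell from NP to G, and 2 rose and 5 fell from G to L. Of 22 adaptors and kinases, 4 rose and 3 fell in basal cells from NP to G, with Gab1, a docking protein gene, at 22.1 and 23.2 CPM against 73.6 and 73.8 CPM (log2 fold change 1.80, SE 0.16, edgeR adjusted p = 3.6e-07), and 3 rose and 2 fell in Lp cells from NP to PI. From G to L 4 of the 22 rose and 7 fell in basal cells. Over all genes 46.2%, 26.9% and 48.2% passed in these 3 comparisons.

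Among the further ligands, Epgn in NP mice was 27.9 and 27.4 CPM in C4, 21.6 and 23.1 CPM in C2, 3.32 and 2.90 CPM in C6 and 7.05 and 3.66 CPM in basal cells. In G mice Epgn was 17.9 and 10.5 CPM in basal cells and 8.11 and 15.5 CPM in C5 (5 UMIs), and in L basal cells it was 0.757 and 0.722 CPM. It was called higher in G than in NP basal cells and lower in L than in G basal cells. Nrg4, which encodes neuregulin 4, was 24.6 and 42.8 CPM in C4 of NP mice, and in differentiated Hs cells it fell from 24.7 and 42.7 CPM in NP to 3.01 and 8.34 CPM in PI mice (log2 fold change -2.36, SE 0.35, edgeR adjusted p = 0.0013). In Hs progenitors Nrg4 was 12.2 and 28.0 CPM in NP against 2.05 and 5.35 CPM in PI mice (log2 fold change -2.16, SE 0.46, edgeR adjusted p = 0.0080), and in differentiated Hs cells of G mice it was 0 and 3.87 CPM (log2 fold change -3.93, SE 0.85, edgeR adjusted p = 6.7e-05). Nrg4 thus passed the test in the same 3 Hs comparisons as Areg and Btc. Egf itself was at most 8.09 CPM in any cluster, in C9 of L2, from 10 UMIs over both L mice. It was called higher in differentiated alveolar cells of L than of G mice, where C8 held 0.794 and 0.455 CPM. Nrg3 had no UMI in C4, C6, C8, C12, C13 or C14.

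Across the 51 sums, genes most like each member were named by Spearman's rank correlation of CPM over 11273 genes, as a description, since sums of one mouse share a library and sums of one cell type share its profile. Areg ranked with Cxcl15 (0.907) and Prlr (0.883), Nrg1 with Col17a1 (0.836) and Krt14 (0.831), Erbb3 with Esrp1 (0.906), Erbb2 with Epn3 (0.878), Btc with Evpl (0.885), and Egfr with Vldlr (0.875). Tgfa ranked with Eif4h (0.888), Erbb4 with Irx3 (0.808), Hbegf with Ralb (0.792) and Ereg with Prss12 (0.745). Between members the highest values were those of Erbb2 with Erbb3 (0.852) and of Btc with Erbb3 (0.802), whereas Areg with Egfr was -0.237.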

How the data were processed

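Per the authors' methods, cDNA libraries of transcript 3' ends were made on the 10x Chromium system (v2 chemistry), all time points were processed together, and the deposited UMI counts per gene and cell were made with Cell Ranger on mm10 (STAR is named in the processing notes, and versions are not given in the sources used here). The authors also deposited a cell table with filter flags, cluster assignments (C1 to C20) and quality values such as the mitochondrial fraction of each cell. The counts are raw. The cell filter, the clusters and the removal of doublets (C20, 310 cells, not used here, with barcodes shared between libraries) are the authors' own.

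UMIs of the 24699 cells of C1 to C19 were summed per mouse and cluster or cell class, and sums of at least 20 cells were kept and scaled to CPM. Stage comparisons used edgeR 4.0.16 (quasi-likelihood F-test, TMM scaling, filterByExpr, adjusted p under 0.05) in R 4.3.3 on 2 mice against 2, after the steps were tested on simulated data. Differences of a change between classes used 1 fit with mouse as a term. Alternatives were RLE scaling, DESeq2 1.42.0, no filter, a replicate block, equal depth, omission of milk protein genes, 1 fit over the basal stages and leaving out each mouse in turn. Thinning drew 1000 UMIs per cell without replacement. Intervals and floors (3 counts for a count of 0, 95% confidence) cover counting error only. CPM of 3'-end counts carries no gene length term. The members and gene lists were chosen with earlier results of these data known, and the named genes are the members, up to 3 genes per list and comparison with the largest changes among those that passed with at least 20 CPM and no overlap between mice, and for each member the 3 genes most like it. Promoters come from a RefSeq table (GRCm38.p6), gene positions from GENCODE vM21.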

Additional observations from a re-analysis of the deposited data

Results flagged for a closer look

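The results flagged are differences of a stage change between cell classes that passed a test of the difference itself (edgeR, mouse as a term, Benjamini-Hochberg adjustment over all genes), given as log2 differences. No group held enough mice for a search for single outlying samples. For PI against NP, Areg differed by 0.85 (SE 0.14, edgeR adjusted p = 0.00094) between Hs progenitors and Lp cells. Between differentiated Hs and Lp cells, the difference was 1.21 for Areg (edgeR adjusted p = 2.2e-06), -0.93 for Btc (edgeR adjusted p = 0.040) and 0.64 for Hbegf (edgeR adjusted p = 0.0027). Areg in NP Lp cells lay within the range of the Hs markers there, and the part of free RNA was not tested.

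The remaining contrasts were chosen after seeing the data. For PI against NP between basal and Lp cells, the difference was 1.37 for Areg (edgeR adjusted p = 0.042) and 0.95 for Hbegf (edgeR adjusted p = 0.0044). For G against NP between basal and differentiated Hs cells, it was -7.37 for Erbb4 (edgeR adjusted p = 0.00017), -1.47 for Areg (edgeR adjusted p = 2.2e-14) and -1.49 for Erbb2 (edgeR adjusted p = 0.049). For L against G it was 1.35 for Hbegf between differentiated alveolar cells and alveolar progenitors (edgeR adjusted p = 0.0093), although the mean CPM of Hbegf in differentiated cells was 87.7 in G and 94.1 in L mice and the log2 fold change there was -0.20 without L2. Between basal cells and alveolar progenitors it was -4.15 for Areg (edgeR adjusted p = 5.4e-06), -3.66 for Btc (edgeR adjusted p = 0.0080), -3.39 for Nrg1 (edgeR adjusted p = 3.7e-08) and -0.75 for Hbegf (edgeR adjusted p = 0.045). The Btc value rests on 4 and 8 UMIs in G and 1 and 1 in L basal cells, where Btc was under the filter on low counts, and the Erbb4 value on 5 and 5 UMIs in NP and G basal cells, also under the filter. Between basal and differentiated alveolar cells it was -2.89 for Nrg1 (edgeR adjusted p = 0.00015) and -2.10 for Hbegf (edgeR adjusted p = 6.6e-06). Nrg1 in both alveolar classes of L mice lay within or near the percentage range of the basal markers, and the part of free RNA was not tested. Areg in NP basal cells and in G alveolar progenitors lay within the range of the Hs markers, with the part of free RNA likewise not tested. Erbb2 in C5 rests on 5 and 10 UMIs and passed in neither stage comparison alone. The Hbegf difference of -2.10 uses the same differentiated alveolar cells, whose log2 fold change was -0.20 without L2.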

How the results depend on the processing

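Of the member calls tested under alternatives other than leaving out a mouse, 193 values kept their direction and their side of the threshold and 23 no longer passed. Without 1 mouse 126 kept both, 24 no longer passed and 1 reversed. Calls whose member fell under the filter on low counts in an alternative are not in these counts. At equal depth they were Btc and Erbb4 in C5, Btc in G basal cells, and Areg and Nrg1 in differentiated alveolar cells. Without G2 it was Erbb4 in C5. DESeq2 called fewer genes in 8 of the 9 stage comparisons and more in differentiated alveolar cells (2430 against 2219), with 1471 in Lp cells against 2892, 762 in Hs progenitors against 1778, 1141 in differentiated Hs cells against 1714, 2864 in G basal cells against 5124, 416 in PI basal cells against 631, and 1023 in alveolar progenitors against 2368, where it called 1 member in place of 2. At equal depth 622 genes and 2 members passed in C5 against 2048 and 4, 134 genes and 0 members in PI basal cells (1 in the fit reported), and 1246 genes and 1 member in differentiated alveolar cells against 2219 and 4, with fewer counts behind each value. With no filter 2 members passed in PI basal cells and 4 in alveolar progenitors. Without a mouse term the differences from Lp cells passed for 86 genes and 0 members in Hs progenitors and 1159 genes and 0 members in differentiated Hs cells, and 111 genes passed between the Hs classes. Replicate numbers do not tie mice of different stages, and deviations of same-numbered mice correlated between -0.033 and 0.089. The replicate block gave between 508 and 6352 called genes per comparison (3294 in Lp cells, 1642 in Hs progenitors) and 2 members in PI basal cells.

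Without each mouse in turn, genes called ranged from 1704 to 2472 in Lp cells, 476 to 1960 in Hs progenitors, 928 to 2458 in differentiated Hs cells (PI) and 667 to 1381 (G). In basal cells they ranged from 3412 to 5079 (G), 4425 to 5600 (L) and 185 to 913 (PI), in differentiated alveolar cells from 609 to 1890, and in alveolar progenitors from 1625 to 2538. Members called ranged from 5 to 5 in Lp cells, 2 to 4 in Hs progenitors, 2 to 4 in differentiated Hs cells at PI and at G, 5 to 6, 5 to 7 and 0 to 2 in basal cells (G, L, PI), 1 to 3 in differentiated alveolar cells and 2 to 3 in alveolar progenitors. For the differences of the change, genes called ranged from 99 to 359 and members from 1 to 2 (Hs progenitors against Lp cells), 1123 to 2385 and 1 to 3 (differentiated Hs against Lp cells) and 177 to 513 and 0 to 0 (between the Hs classes). The log2 fold change of Ereg in G basal cells ranged from -0.013 to 0.84, that of Hbegf from -0.20 to 1.65 in differentiated alveolar cells and from -0.55 to 0.052 in alveolar progenitors. The highest cluster of each member was the same for 10 of 10 members without milk genes, 9 with the mean over cells and 5 with sums of at least 50 cells, and after cells were thinned to 1000 UMIs the cluster with the largest share of cells with a UMI, which need not be the one with the highest CPM, was the same as before thinning for 2 of 10 members (Nrg1 in C13 and Erbb2 in C2). Depth limits the values of small sums, among them C5, C9, C18 and PI C12.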

Other observations

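A few cluster sums came from 1 mouse of a stage and are not shown in the figures of levels. The 22 cells of PI1 assigned to C6 were pooled with C7 in the Lp comparison above. Alone they held 185 CPM of Hbegf, 65.9 CPM of Egfr, 72.5 CPM of Erbb3 and 6.59 CPM of Areg. The fibroblasts of PI2 (38 cells) held 159.5 CPM of Egfr and 203 CPM of Hbegf and no UMI of Areg, Btc, Tgfa or Ereg. In the immune cluster C16 of G1 (22 cells), Hbegf, Egfr and Tgfa were each seen in 1 UMI and the other members in none.

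The immune cluster C17 held Nrg1 at 55.4 and 54.1 CPM in G mice and 128 and 27.9 CPM in L mice. In C17 of L1 this was 31.6% of the level in C14 of the same mouse, where the 4 basal markers lay between 25.1% and 28.4%, and in L2 it was 7.04% against 7.78% to 11.7%. Nrg2, which encodes neuregulin 2, was 6.58 and 9.99 CPM in basal cells of L mice. It was called higher there than in basal cells of G mice (3.03 and 3.66 CPM in C13).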
